A study of Mus musculus with 10 samples.

Results

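The 40 genes described here build, cap, supply or carry the sialylated and fucosylated glycans that selectins and other lectins read on T cells. They were chosen by symbol from a list by function, drawn up with earlier results of these data known. The list holds the scaffold proteins of selectin ligands, the O-glycan core enzymes, the galactosyl- and N-acetylglucosaminyltransferases that extend chains, the sialyl-, fucosyl- and sulfotransferases, and the enzymes that supply or remove sialic acid. All 40 were found among the 55359 gene identifiers of the count table, and all 40 were among the 15777 genes that passed the filter on low counts.

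RNA sequencing was done on cultures grown from spleens of pmel-1 mice, a strain whose CD8 T cells carry a transgenic receptor for the melanoma antigen gp100. The spleen cells were first stimulated with hgp100 for 48 h and then held in hIL-2 for 48 h. There were 5 groups of 2 libraries each. Mixture cells were electroporated with mRNA for IL-12 together with mRNA for DRIL18, a form of IL-18 that its soluble decoy receptor does not capture. IL12 cells received the IL-12 mRNA alone and DRIL18 cells the DRIL18 mRNA alone. Mock cells were electroporated controls, and the sources used here do not say which mRNA, if any, they received. RNA was taken 24 h after electroporation. NoEp cells were not electroporated. All groups shared the pmel-1 receptor, the antigen activation and the IL-2 culture. The labels call the libraries biological replicates without saying that they came from separate animals, so every p-value below measures only the spread between these samples.

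Selectins on vessel walls, platelets and leukocytes bind short glycans displayed on carrier proteins, above all on PSGL-1, the product of Selplg. On such a carrier an O-glycan is begun with N-acetylgalactosamine, a galactose makes core 1, and a core 2 branch gives room for a chain that alpha2,3-sialyltransferases and alpha1,3-fucosyltransferases finish as sialyl Lewis x. Activated CD8 T cells are known to build such branches and caps, while resting cells carry mostly sialylated core 1.

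Libraries held between 31281944 and 35062545 counts, and replicates of a group lay next to each other on the first principal component. Markers of cell types were summed in each library, and none of them tells the pmel-1 receptor from another T cell receptor. Levels are given in CPM, counts scaled to each library's TMM-adjusted total over the tested genes. The 6 T cell markers were Cd3d, Cd3e, Cd3g, Cd247, Trac and Cd2. Their sum was 1228 to 1245 CPM in mixture libraries, 1742 to 1792 in IL12 and 1797 to 1832 in DRIL18. It was 2008 to 2012 CPM in Mock and 2097 to 2136 in NoEp libraries. Cd8a and Cd8b1 together stood at 1245 to 1264 CPM in mixture, 1259 to 1304 in IL12, 1589 to 1600 in DRIL18, 1582 to 1611 in Mock and 1645 to 1726 in NoEp. Other marker lists moved between groups too. The sum of 3 gamma-delta T cell markers, nearly all of it Trdc and Tcrg-C1, was 23.1 to 23.4 CPM in mixture, 39.7 to 44.8 in IL12, 61.3 to 65.7 in DRIL18, 85.5 to 86.7 in Mock and 101 to 103 in NoEp libraries. The sum of 5 CD4 and regulatory T cell markers was 167.8 to 168 CPM in mixture, 304 to 312 in IL12 and 230.2 to 234 in DRIL18 libraries. It was 193 to 199 CPM in Mock and 227 to 229 in NoEp libraries, and most of it was Ctla4 in every group. In IL12 cells against Mock, Ctla4 rose and Ikzf2 fell (log2 fold changes 0.80 and -1.45). Cd4 averaged 4.03 CPM in IL12 and 5.03 in Mock. For 6 dendritic cell markers the sum was 10.3 to 10.6 CPM in mixture, 21.8 to 23.0 in IL12 and 5.25 to 5.74 in DRIL18 libraries. It was 8.83 to 9.31 CPM in Mock and 10.96 to 12.7 in NoEp libraries, with Siglech at 0 throughout. These markers did not move together. Xcr1 averaged 20.6 CPM in IL12 and 4.49 in Mock, whereas Itgax averaged 1.08 in IL12 and 4.21 in Mock. Summed markers of NK cells, macrophages, neutrophils and erythroid cells were below 2 CPM in every library, with S100a8 and S100a9 at 0 throughout. In bulk RNA, fewer cells of a type and less RNA of a gene per cell cannot be told apart, and the part of these marker shifts in the results below was not tested.

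With both mRNAs together, the O-glycan enzyme Gcnt3 appeared at a level seen in no other group. The sialyltransferases St3gal6, St8sia1, St8sia4 and St6gal1 each fell more than 3-fold against Mock in these mixture cells. So did the sialic acid hydroxylase Cmah and the chain extension enzyme B3gnt5. St6gal1 fell more than 3-fold with IL-12 mRNA alone as well. With IL-12 mRNA alone, the core 2 enzyme Gcnt1 rose 5.90-fold and the sulfotransferase Chst2 2.27-fold, and neither passed the test in mixture cells against Mock. Changes with DRIL18 mRNA alone were fewer, and the one of at least 2-fold was the fall of St3gal6.

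Against Mock, 30 of the 40 genes passed the test in mixture cells (12 higher, 18 lower), where 63.9% of all tested genes did (32.0% higher, 31.9% lower). In IL12 cells 26 passed (9 higher, 17 lower), against 46.6% of all genes (23.0% higher, 23.6% lower). In DRIL18 cells 13 passed (4 higher, 9 lower), against 24.3% of all genes (12.2% higher, 12.1% lower). The test was edgeR's quasi-likelihood F test with Benjamini-Hochberg adjustment over all 15777 genes, and a gene is called where the adjusted p lies under 0.05. Changes of at least 2-fold were found for 12 of the 40 in mixture cells, where 19.8% of all genes reached that size, for 6 in IL12 cells (8.93% of all genes) and for 1 in DRIL18 cells (1.91%). The median log2 fold change over the 40 was -0.14 in mixture cells, -0.17 in IL12 cells and -0.01 in DRIL18 cells, while over all tested genes all 3 medians lay within 0.01 of 0. Setting Gcnt3 to its bound, given below, leaves the mixture median of the 40 at -0.14. These 3 comparisons share the Mock libraries. Both mixture libraries and neither Mock library carry a mark "bis" in their column names, which the sources used here do not explain.

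**Figure D1:**
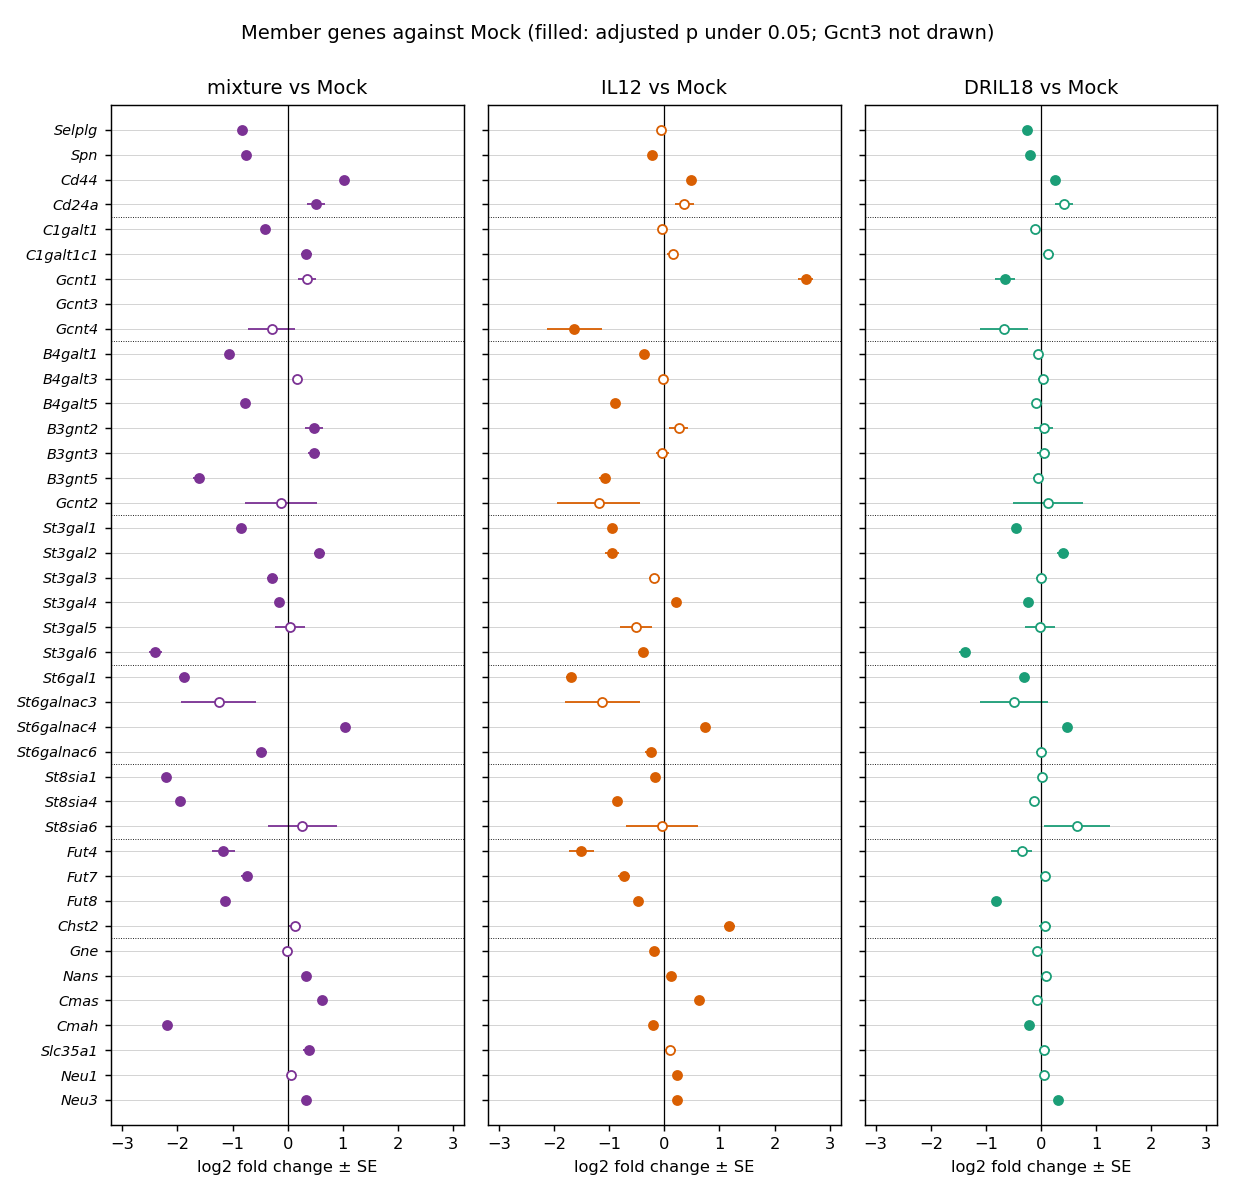
Log2 fold change (± SE, edgeR) of each of the 40 genes against Mock in mixture (left), IL12 (middle) and DRIL18 cells (right), 2 libraries per group, with dotted lines between roles. Filled points passed the test; Gcnt3 is left undrawn because its Mock libraries hold 0 counts, and the points spread most in mixture cells, where St3gal6 lies at -2.40.

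Among the scaffolds, the proteins that carry the glycans, both sialomucins fell and CD44 rose in mixture cells. Selplg (ENSMUSG00000048163) encodes PSGL-1, the main P-selectin ligand of leukocytes. Its level was 453 and 485 CPM in the mixture libraries, 801 and 792 in IL12, 696 and 702 in DRIL18, 837 and 826 in Mock, and 884 and 861 in NoEp. Mixture libraries were the lowest and did not overlap any other group, and IL12 libraries lay just under Mock. The fall was 1.77-fold in mixture cells (log2 fold change -0.83 ± 0.04, adjusted p = 8.51e-19) and 1.19-fold in DRIL18 cells (log2 fold change -0.25 ± 0.04, adjusted p = 3.00e-06). In IL12 cells the difference from Mock missed the threshold at -0.06 ± 0.04 (adjusted p = 0.163), but passed with upper-quartile scaling at -0.11 and an adjusted p of 0.013.

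Spn encodes CD43, a large sialomucin that is a major O-glycan carrier of T cells. Its level was 332 and 352 CPM in the mixture libraries, 501 and 495 in IL12, 487 and 516 in DRIL18, 579 and 579 in Mock, and 597 and 589.9 in NoEp. The order was mixture lowest, then IL12 and DRIL18 together, then Mock and NoEp. The log2 fold changes against Mock were -0.76 ± 0.04 (adjusted p = 1.20e-17) in mixture cells, -0.22 ± 0.04 (adjusted p = 1.19e-05) in IL12 cells and -0.21 ± 0.04 (adjusted p = 6.78e-05) in DRIL18 cells. Both scaffolds fell in mixture cells alongside the T cell marker sum given above.

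Cd44 encodes the hyaluronan receptor, some glycoforms of which bind E-selectin. It was measured at 109 and 111 CPM in the mixture libraries, 77.3 and 75.5 in IL12, 64.4 and 65.2 in DRIL18, 53.0 and 55.9 in Mock, and 51.3 and 56.1 in NoEp. Every group that received cytokine mRNA lay above Mock, with mixture highest, while Mock and NoEp overlapped. The rise over Mock was 2.02-fold in mixture cells (log2 fold change 1.02 ± 0.05, adjusted p = 7.97e-18), 1.40-fold in IL12 cells (adjusted p = 1.62e-09) and 1.19-fold in DRIL18 cells (adjusted p = 0.000336).

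Cd24a encodes a small lipid-anchored mucin-like protein that P-selectin can bind. It was low, at 6.92 and 6.23 CPM in the mixture libraries, 6.04 and 5.76 in IL12, 6.38 and 5.89 in DRIL18, 4.56 and 4.61 in Mock, and 5.46 and 3.37 in NoEp. All 6 libraries with cytokine mRNA lay above both Mock libraries. Only the mixture passed against Mock (log2 fold change 0.52 ± 0.16, adjusted p = 0.00602), and without mixture replicate 1 the adjusted p was 0.0566. Processed copies of Cd24a exist in the mouse genome, and the sources used here do not say how reads with several alignments were counted.

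Among the 5 O-glycan core enzymes, Gcnt3 marked mixture cells and Gcnt1 marked IL12 cells. C1galt1 encodes the galactosyltransferase that makes core 1. Its level was 73.8 and 77.4 CPM in the mixture libraries, 98.8 and 95.2 in IL12, 95.6 and 90.6 in DRIL18, 99.3 and 102 in Mock, and 103 and 107 in NoEp. Mixture libraries stood below all others, while the remaining groups lay within a narrow band. The fall in mixture cells was 1.33-fold (log2 fold change -0.41 ± 0.05, adjusted p = 2.97e-09). C1galt1c1 encodes Cosmc, the chaperone that C1galt1 needs to fold, and it moved the other way in mixture cells (log2 fold change 0.34 ± 0.10, adjusted p = 0.00369). That call was lost with a term for the mark in the column names (adjusted p = 0.0891). Without Mock replicate 2 the Cosmc call was lost (adjusted p = 0.0657).

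Gcnt1 (ENSMUSG00000038843) encodes the core 2 N-acetylglucosaminyltransferase that opens the branch on which PSGL-1 displays sialyl Lewis x. Its readings were 4.50 and 5.01 CPM in the mixture libraries, 20.3 and 23.8 in IL12, 1.88 and 2.89 in DRIL18, 3.59 and 3.87 in Mock, and 3.39 and 3.62 in NoEp. IL12 libraries stood far above all other groups, mixture libraries just above Mock, and DRIL18 libraries below Mock. The rise in IL12 cells was 5.90-fold over Mock (log2 fold change 2.56 ± 0.14, adjusted p = 4.02e-16). In mixture cells the difference from Mock missed the threshold at 0.35 ± 0.16 (adjusted p = 0.0576). It passed with a replicate block (adjusted p = 0.0437) and without either DRIL18 library (adjusted p = 0.0408 and 0.0407). In DRIL18 cells Gcnt1 fell (log2 fold change -0.65 ± 0.18, adjusted p = 0.00739). That fall rested on DRIL18 replicate 1, without which the log2 fold change was -0.37 (adjusted p = 0.226), and it was -0.99 without DRIL18 replicate 2. Without Mock replicate 2 its adjusted p was 0.0711. Set directly against IL12 cells, mixture cells held 4.63-fold less Gcnt1 (log2 fold change -2.21 ± 0.13, adjusted p = 4.10e-15).

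Gcnt3 (ENSMUSG00000032226) encodes a relative of Gcnt1 that makes core 2 and core 4 branches and is best known from mucin-secreting epithelium. Mixture libraries held 2486 and 2482 counts of Gcnt3, which is 72.6 and 73.6 CPM. Each IL12 library held 1 count, and the DRIL18, Mock and NoEp libraries held 0. The groups could hardly lie further apart, since only the cells with both mRNAs had more than 1 count. With 3 counts over the group set in place of 0, Gcnt3 was at least 1680-fold higher in mixture cells than in Mock, at least 1671-fold higher than in DRIL18 and at least 1651-fold higher than in NoEp. Against the 2 counts of the IL12 group the ratio was 2280, with a 95% interval from counting alone of 631 to 18833. edgeR called the gene in mixture against Mock (adjusted p = 1.11e-26). Gcnt3 passed the filter on low counts only through its mixture libraries, so that call adds nothing to the counts themselves. Its fitted fold change depends on the prior count and is not given.

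Per kilobase of exon, the level of Gcnt3 in mixture cells (17.0 CPM per kb) was the 8th highest among the 40 genes there. Exon lengths came from GENCODE M21, so this ranking compares genes on a per-length scale. In Mock cells the highest per-length levels among the 40 were those of Selplg (194.7 CPM per kb), Spn (124), B4galt1 (60.1) and B4galt5 (31.4), and Gcnt1 stood 35th at 0.648 CPM per kb. Selplg and Spn kept the first and second place in mixture cells, at 109.8 and 73.0 CPM per kb.

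Gcnt4, the remaining core 2 enzyme, stayed near the detection limit, at 0.905 and 0.652 CPM in the mixture libraries, 0.523 and 0.0944 in IL12, 0.606 and 0.590 in DRIL18, 1.08 and 0.833 in Mock, and 1.07 and 0.779 in NoEp. IL12 libraries were lowest, but they differed more from each other than most groups did. The fall against Mock in IL12 cells (log2 fold change -1.63 ± 0.49, adjusted p = 0.00715) rested on IL12 replicate 2, without which it was -0.87 (adjusted p = 0.179), and it was -3.29 without IL12 replicate 1. Without Mock replicate 1 its adjusted p was 0.0669.

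**Figure D2:**
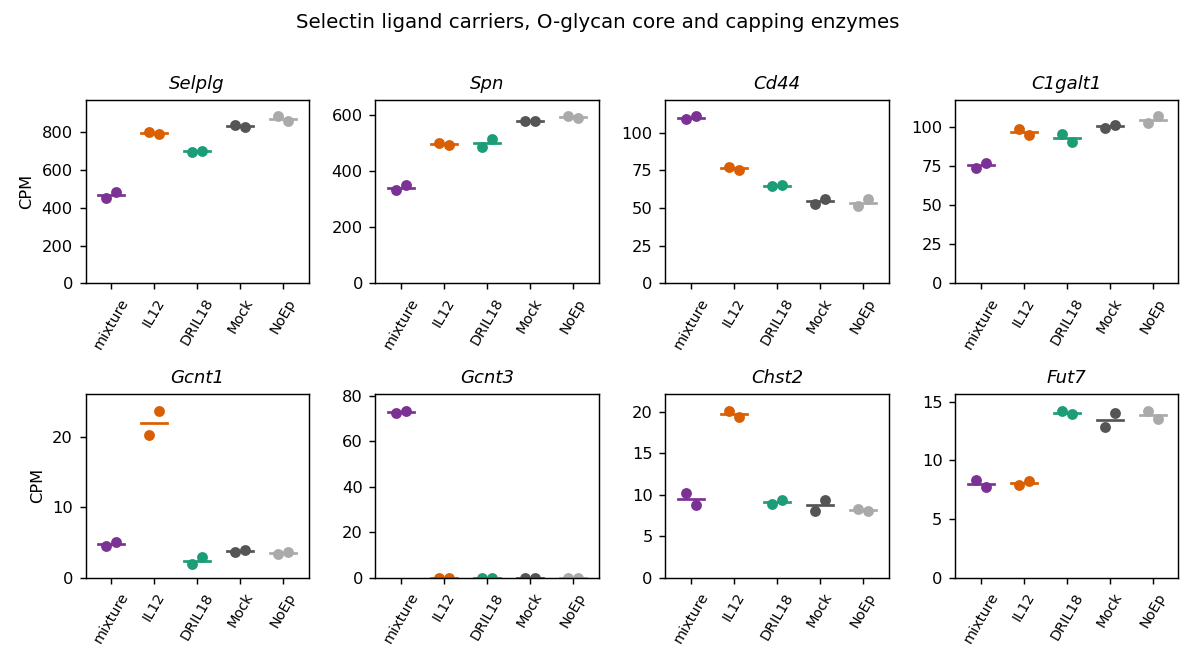
CPM of 8 scaffold, core, sulfation and fucosylation genes in each library (points) with the group mean (line), 5 groups of 2 libraries. Gcnt3 is on in mixture libraries at 72.6 and 73.6 CPM, while Gcnt1 and Chst2 are highest in IL12 libraries.

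Of the 7 enzymes of chain extension, 3 fell and 2 rose in mixture cells, where 31.9% of all tested genes fell and 32.0% rose. In IL12 cells 3 fell, where 23.6% of all tested genes did. B4galt1 (ENSMUSG00000028413) encodes the main enzyme that adds galactose to N-acetylglucosamine. Its level was 123 and 119 CPM in the mixture libraries, 199 and 197 in IL12, 239 and 249 in DRIL18, 256 and 253 in Mock, and 263 and 278 in NoEp. Mixture was lowest, IL12 intermediate, and DRIL18 just under Mock. B4galt1 fell 2.10-fold in mixture cells (log2 fold change -1.07 ± 0.04, adjusted p = 7.99e-21) and 1.28-fold in IL12 cells (log2 fold change -0.36 ± 0.04, adjusted p = 2.90e-09). B4galt5 makes lactosylceramide and extends core 2 branches. Libraries held 76.1 and 82.0 CPM in the mixture libraries, 70.8 and 74.3 in IL12, 128 and 125 in DRIL18, 136 and 134 in Mock, and 131 and 126 in NoEp. Here mixture and IL12 libraries were both far below the other groups, with IL12 slightly lower. The log2 fold changes against Mock were -0.77 ± 0.04 (adjusted p = 7.99e-16) in mixture cells and -0.90 ± 0.05 (adjusted p = 1.03e-16) in IL12 cells.

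B3gnt5 begins the lacto-series glycolipids. Its level was 6.01 and 7.41 CPM in the mixture libraries, 9.80 and 9.59 in IL12, 19.1 and 20.3 in DRIL18, 21.5 and 19.6 in Mock, and 21.6 and 22.9 in NoEp. The order was mixture, then IL12, then the remaining groups, whose libraries overlapped in part. It fell 3.06-fold in mixture cells (log2 fold change -1.61 ± 0.10, adjusted p = 3.65e-15) and 2.12-fold in IL12 cells (log2 fold change -1.08 ± 0.10, adjusted p = 5.01e-11). A pair of other chain enzymes rose in mixture cells. B3gnt2, which builds poly-N-acetyllactosamine, rose by a log2 fold change of 0.47 ± 0.16 (adjusted p = 0.0127), and B3gnt3, which extends core 1, by 0.48 ± 0.11 (adjusted p = 0.000425). Without Mock replicate 1 neither kept its call (adjusted p = 0.152 for B3gnt2 and 0.0558 for B3gnt3), and without mixture replicate 1 B3gnt2 stood at an adjusted p of 0.158. B4galt3, another galactosyltransferase, ranged from 16.6 to 19.6 CPM over the 10 libraries and the I-branching enzyme Gcnt2 from 0.098 to 0.59 CPM, and neither was called against Mock in any group.

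Promoters are shown for a few genes chosen after their values were seen, all with an interaction below 0 (given further on), to give the sequence context of those responses. RefSeq promoters on GRCm38.p6 were matched by symbol for 33 of the 40 genes, and 250 bases before the annotated start are printed. Capitals mark a match to one of 3 motifs searched on both strands: TTCNNNGAA for STAT factors, TCACACC for T-box factors, and GGGA and TTTCC with 1 base between them for NF-kB. Over all 32851 promoters of this length, 7.02%, 3.33% and 0.356% hold these motifs, against 3, 1 and 0 of the 47 promoters of the 40 genes. The printed promoters lie at chr19:17372845-17373094 (Gcnt1, minus strand, the first of 3 listed starts), chr9:95407271-95407520 (Chst2, minus strand), chr4:40853985-40854234 (B4galt1, minus strand), chr6:142964453-142964702 (St8sia1, minus strand) and chr13:24327154-24327403 (Cmah, plus strand, the first of 2 listed starts).
Gcnt1: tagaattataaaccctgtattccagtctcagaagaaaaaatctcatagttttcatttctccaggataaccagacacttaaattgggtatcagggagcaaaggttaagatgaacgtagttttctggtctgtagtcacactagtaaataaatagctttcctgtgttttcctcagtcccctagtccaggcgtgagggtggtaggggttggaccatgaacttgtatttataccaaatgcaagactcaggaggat
Chst2: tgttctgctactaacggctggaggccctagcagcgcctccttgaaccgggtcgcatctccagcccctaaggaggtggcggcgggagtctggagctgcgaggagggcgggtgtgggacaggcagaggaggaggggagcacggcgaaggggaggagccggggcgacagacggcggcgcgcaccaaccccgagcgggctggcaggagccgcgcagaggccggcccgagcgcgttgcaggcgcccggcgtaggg
B4galt1: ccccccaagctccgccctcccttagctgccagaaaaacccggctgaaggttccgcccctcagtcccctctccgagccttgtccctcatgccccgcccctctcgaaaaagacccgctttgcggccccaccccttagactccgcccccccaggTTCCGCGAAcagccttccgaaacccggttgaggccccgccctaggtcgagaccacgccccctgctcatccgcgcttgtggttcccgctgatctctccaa
St8sia1: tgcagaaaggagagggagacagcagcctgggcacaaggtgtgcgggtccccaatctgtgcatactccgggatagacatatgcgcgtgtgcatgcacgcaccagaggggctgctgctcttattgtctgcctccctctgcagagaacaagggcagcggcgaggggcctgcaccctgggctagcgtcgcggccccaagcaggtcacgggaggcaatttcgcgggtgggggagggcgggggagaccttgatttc
Cmah: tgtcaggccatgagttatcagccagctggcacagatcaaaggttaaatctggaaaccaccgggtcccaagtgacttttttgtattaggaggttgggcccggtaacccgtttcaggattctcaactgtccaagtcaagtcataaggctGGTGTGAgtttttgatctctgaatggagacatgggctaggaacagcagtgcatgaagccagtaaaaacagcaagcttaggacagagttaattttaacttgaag
B4galt1 holds the STAT letters 99 to 91 bases before its start, and Cmah the T-box letters, read on the other strand, 103 to 97 bases before its start. The windows of Gcnt1, Chst2 and St8sia1 hold none of these letters. A match describes the sequence and is no evidence of binding.

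Of the 6 alpha2,3-sialyltransferases 4 fell and 1 rose in mixture cells, where 31.9% of all tested genes fell and 32.0% rose. St3gal1 caps core 1 with sialic acid, which ends the chain without a core 2 branch. Its level was 36.0 and 36.6 CPM in the mixture libraries, 34.0 and 33.4 in IL12, 47.2 and 48.7 in DRIL18, 66.8 and 64.1 in Mock, and 70.1 and 75.1 in NoEp. All groups with cytokine mRNA lay below Mock, with IL12 and mixture lowest. The log2 fold changes against Mock were -0.85 ± 0.05 (adjusted p = 8.49e-15) in mixture, -0.96 ± 0.06 (adjusted p = 2.47e-15) in IL12 and -0.45 ± 0.05 (adjusted p = 8.91e-08) in DRIL18 cells. St3gal2 acts on the same core 1 structure and on gangliosides. Its values were 15.3 and 15.5 CPM in the mixture libraries, 4.90 and 5.76 in IL12, 13.01 and 14.4 in DRIL18, 9.28 and 11.4 in Mock, and 10.5 and 9.32 in NoEp. IL12 libraries lay at the bottom, whereas mixture and DRIL18 libraries lay above Mock. St3gal2 fell in IL12 cells (log2 fold change -0.95 ± 0.13, adjusted p = 1.70e-07) and rose in mixture cells (log2 fold change 0.58 ± 0.11, adjusted p = 2.30e-05). It also rose in DRIL18 cells (log2 fold change 0.41 ± 0.11, adjusted p = 0.00532). That call was lost without Mock replicate 1, at 0.26 (adjusted p = 0.185), without DRIL18 replicate 2 (adjusted p = 0.0946), and with a term for a mark in the column names (adjusted p = 0.0644).

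St3gal4 and St3gal6 sialylate the N-acetyllactosamine ends that become sialyl Lewis x. St3gal4 was measured at 58.7 and 54.1 CPM in the mixture libraries, 73.8 and 71.8 in IL12, 51.8 and 54.9 in DRIL18, 65.6 and 60.9 in Mock, and 61.4 and 60.4 in NoEp. IL12 libraries were the highest, and mixture and DRIL18 libraries lay below Mock by small margins. St3gal4 rose in IL12 cells (log2 fold change 0.20 ± 0.05, adjusted p = 0.00207) and fell in DRIL18 cells (log2 fold change -0.25 ± 0.05, adjusted p = 0.000858). The IL12 call was lost without Mock replicate 2 (adjusted p = 0.0587). The fall in mixture cells (log2 fold change -0.17 ± 0.05, adjusted p = 0.00811) was lost without mixture replicate 2, at -0.11 (adjusted p = 0.156), and without Mock replicate 1 (adjusted p = 0.157).

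St3gal6 was measured at 3.44 and 4.36 CPM in the mixture libraries, 15.6 and 15.8 in IL12, 7.21 and 8.58 in DRIL18, 19.6 and 21.7 in Mock, and 22.2 and 23.6 in NoEp. The groups formed a clear order without overlap, from mixture through DRIL18 and IL12 to Mock, with NoEp at the top. It fell 5.29-fold in mixture cells (log2 fold change -2.40 ± 0.11, adjusted p = 5.60e-18), 2.62-fold in DRIL18 cells (log2 fold change -1.39 ± 0.10, adjusted p = 5.23e-12) and 1.31-fold in IL12 cells (log2 fold change -0.39 ± 0.09, adjusted p = 0.000872). In GENCODE M21 the gene Dcbld2 overlaps St3gal6 on the opposite strand. The library kit is stranded, but the sources used here do not give the strand setting of the counting. St3gal3 fell slightly in mixture cells (log2 fold change -0.28 ± 0.10, adjusted p = 0.0155), a call lost without Mock replicate 1 (adjusted p = 0.0929), without either mixture library (adjusted p = 0.0667 and 0.0507), in DESeq2 (0.0565) and with the column-mark term (0.0692). The GM3 synthase St3gal5 ranged from 1.07 to 2.51 CPM and was called against Mock in no group.

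Among the alpha2,6-sialyltransferases, the N-glycan enzyme fell and an O-glycan enzyme rose. St6gal1 makes the alpha2,6-sialylated N-glycans that CD22 binds. It was measured at 21.8 and 22.9 CPM in the mixture libraries, 19.9 and 30.8 in IL12, 65.1 and 67.5 in DRIL18, 82.5 and 81.6 in Mock, and 90.3 and 89.8 in NoEp. Mixture and IL12 libraries overlapped, far below Mock, and IL12 replicates differed more from each other than those of the other groups. St6gal1 fell 3.67-fold in mixture cells (log2 fold change -1.88 ± 0.09, adjusted p = 6.12e-18) and 3.23-fold in IL12 cells (log2 fold change -1.69 ± 0.09, adjusted p = 2.68e-16). It also fell in DRIL18 cells (log2 fold change -0.31 ± 0.08, adjusted p = 0.00403). The DRIL18 call was lost in DESeq2 (adjusted p = 0.252) and without DRIL18 replicate 1 (adjusted p = 0.0602). St6gal1 is also strong in B cells, so their markers were compared. The sum of 8 B cell markers was 564 to 578 CPM in mixture, 447 to 481 in IL12, 912 to 961 in DRIL18 and 688 to 690 in Mock libraries, most of it Ighm. The part of these markers in the fall of St6gal1 was not tested.

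St6galnac4 adds sialic acid to the N-acetylgalactosamine of an already sialylated core 1. Its level was 105 and 104 CPM in the mixture libraries, 87.4 and 83.0 in IL12, 73.6 and 68.1 in DRIL18, 51.1 and 50.9 in Mock, and 48.1 and 44.0 in NoEp. The groups stood in a ladder without overlap, with mixture at the top, then IL12, DRIL18, Mock and NoEp. It rose 2.06-fold in mixture (log2 fold change 1.04 ± 0.05, adjusted p = 1.41e-17), 1.67-fold in IL12 (log2 fold change 0.74 ± 0.05, adjusted p = 3.19e-13) and 1.39-fold in DRIL18 cells (log2 fold change 0.48 ± 0.05, adjusted p = 2.86e-08). St6galnac6, which acts on gangliosides, fell in mixture cells (log2 fold change -0.48 ± 0.10, adjusted p = 0.000127). Its small fall in IL12 cells (log2 fold change -0.25 ± 0.10, adjusted p = 0.0457) was lost in DESeq2 (adjusted p = 0.125) and under most other settings. St6galnac3 ranged from 0.119 to 0.538 CPM and was not called against Mock.

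**Figure D3:**
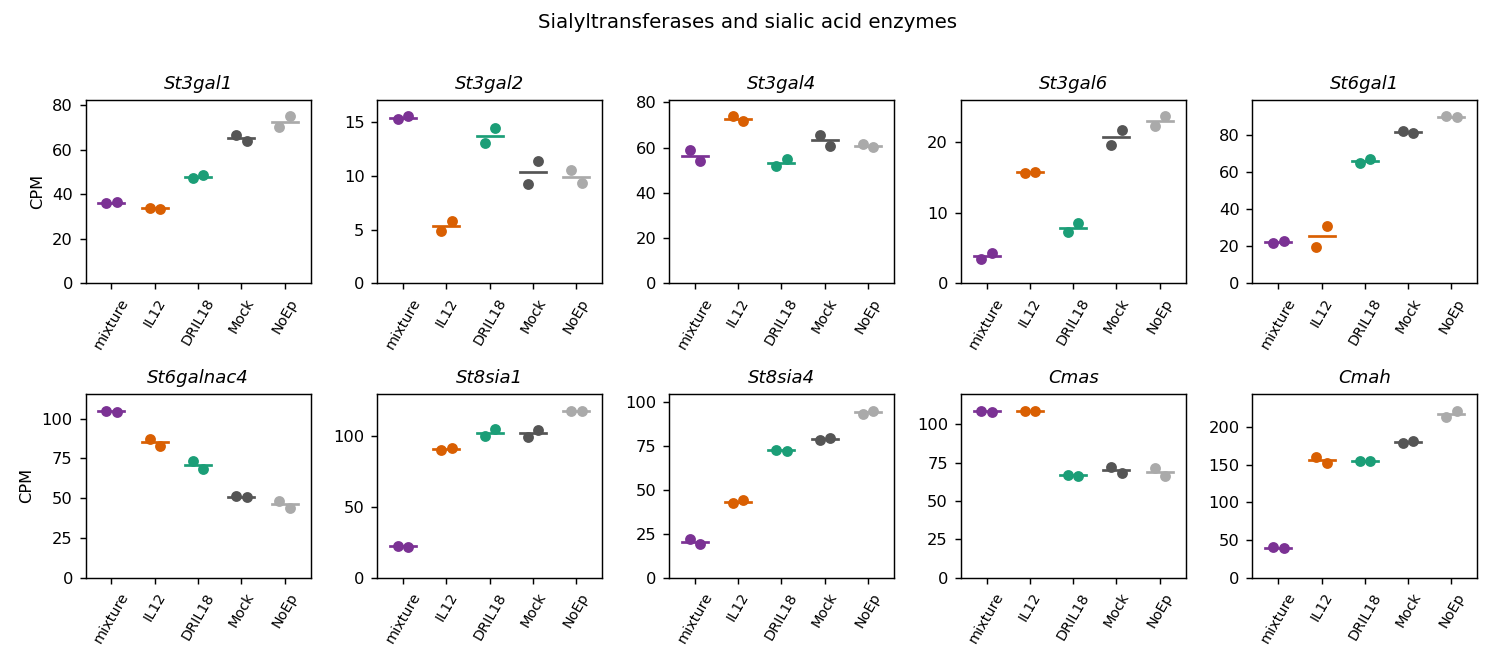
CPM of 10 sialyltransferase and sialic acid genes in each library (points) with the group mean (line), 5 groups of 2 libraries. St8sia1 and Cmah are low in mixture libraries alone, St6gal1 is low in mixture and IL12 libraries, and St6galnac4 is highest in mixture libraries.

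Of the 3 enzymes that add a further sialic acid in alpha2,8 linkage, 2 fell in mixture cells and in IL12 cells. Over all tested genes, 31.9% fell in mixture and 23.6% in IL12 cells. St8sia1 (ENSMUSG00000030283) encodes GD3 synthase, which turns the ganglioside GM3 into GD3. Its readings were 22.5 and 21.8 CPM in the mixture libraries, 90.3 and 91.6 in IL12, 99.8 and 105 in DRIL18, 99.4 and 104 in Mock, and 118 and 117 in NoEp. Mixture libraries stood alone at the bottom, while IL12, DRIL18 and Mock libraries lay close together and NoEp highest. The fall in mixture cells was 4.59-fold (log2 fold change -2.20 ± 0.05, adjusted p = 8.77e-26). In IL12 cells it was 1.12-fold (log2 fold change -0.16 ± 0.04, adjusted p = 0.0035), a call lost without Mock replicate 2 (adjusted p = 0.0938).

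St8sia4 encodes a polysialyltransferase. Its level was 21.8 and 18.9 CPM in the mixture libraries, 42.4 and 44.3 in IL12, 73.0 and 72.0 in DRIL18, 78.1 and 79.5 in Mock, and 93.2 and 95.2 in NoEp. Mixture was lowest and IL12 next, with DRIL18 just under Mock. The fall was 3.87-fold in mixture (log2 fold change -1.95 ± 0.06, adjusted p = 4.88e-23) and 1.82-fold in IL12 cells (log2 fold change -0.86 ± 0.05, adjusted p = 1.79e-14). St8sia6, the third of this kind, ranged from 0.148 to 0.612 CPM and was not called.

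All 3 fucosyltransferases fell in mixture and in IL12 cells, while the sulfotransferase Chst2 rose in IL12 cells. Of all tested genes, 31.9% fell in mixture and 23.6% in IL12 cells. Fut7 encodes the alpha1,3-fucosyltransferase that completes sialyl Lewis x on leukocyte PSGL-1. Libraries held 8.29 and 7.74 CPM in the mixture libraries, 7.91 and 8.24 in IL12, 14.2 and 13.9 in DRIL18, 12.8 and 14.0 in Mock, and 14.3 and 13.5 in NoEp. Mixture and IL12 libraries overlapped at the low end, and DRIL18, Mock and NoEp overlapped at the high end. The log2 fold changes against Mock were -0.74 ± 0.10 (adjusted p = 1.23e-07) in mixture and -0.73 ± 0.10 (adjusted p = 4.53e-07) in IL12 cells. Fut4, which fucosylates inner residues of such chains, was low at 1.78 and 1.75 CPM in the mixture libraries, 1.47 and 1.32 in IL12, 2.63 and 3.60 in DRIL18, 4.16 and 3.78 in Mock, and 3.05 and 2.62 in NoEp. IL12 and mixture libraries were the lowest. Fut4 fell in mixture cells (log2 fold change -1.17 ± 0.21, adjusted p = 1.50e-05) and in IL12 cells (log2 fold change -1.51 ± 0.22, adjusted p = 1.28e-06), and the DRIL18 libraries lay below Mock and overlapped NoEp.

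Fut8 adds the core fucose of N-glycans. Its level was 20.4 and 18.4 CPM in the mixture libraries, 30.6 and 30.8 in IL12, 24.9 and 23.6 in DRIL18, 44.8 and 40.8 in Mock, and 43.9 and 47.1 in NoEp. All groups with cytokine mRNA lay below Mock, with mixture lowest, then DRIL18, then IL12. The log2 fold changes were -1.14 ± 0.07 (adjusted p = 3.00e-15) in mixture, -0.48 ± 0.07 (adjusted p = 4.87e-07) in IL12 and -0.82 ± 0.07 (adjusted p = 7.43e-11) in DRIL18 cells. Chst2 encodes a sulfotransferase that puts sulfate on N-acetylglucosamine, a modification known from L-selectin ligands. Its values were 10.2 and 8.81 CPM in the mixture libraries, 20.1 and 19.3 in IL12, 8.83 and 9.40 in DRIL18, 8.01 and 9.40 in Mock, and 8.23 and 8.02 in NoEp. IL12 libraries stood well above every other group, and mixture libraries overlapped Mock. Chst2 rose 2.27-fold in IL12 cells (log2 fold change 1.18 ± 0.10, adjusted p = 4.05e-11). In mixture cells its log2 fold change was 0.13 ± 0.11 (adjusted p = 0.305) against Mock and -1.05 ± 0.10 (adjusted p = 2.74e-10) against IL12.

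Of the 7 genes of sialic acid supply and removal, 4 rose and 1 fell in mixture cells, where 32.0% of all tested genes rose and 31.9% fell. The gene that fell, Cmah, moved by the most. Gne encodes the enzyme that begins sialic acid synthesis. Its level was 50.2 and 45.6 CPM in the mixture libraries, 42.8 and 42.6 in IL12, 46.4 and 46.0 in DRIL18, 50.2 and 46.9 in Mock, and 45.5 and 45.8 in NoEp. IL12 libraries were lowest by a small margin, and mixture libraries overlapped Mock. Gne fell in IL12 cells (log2 fold change -0.19 ± 0.06, adjusted p = 0.00857), a call lost without Mock replicate 1 (adjusted p = 0.144). Nans, the sialic acid synthase, rose in mixture cells (log2 fold change 0.33 ± 0.04, adjusted p = 1.06e-07). Its rise in IL12 cells (log2 fold change 0.12 ± 0.04, adjusted p = 0.027) was lost without either Mock library (adjusted p = 0.0613 and 0.143) and was 0.07 with upper-quartile scaling (adjusted p = 0.202). Without IL12 replicate 1 its adjusted p was 0.137. In GENCODE M21 the gene Trim14 overlaps Nans on the opposite strand.

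Cmas, which activates sialic acid as CMP-sialic acid, was measured at 109 and 108 CPM in the mixture libraries, 108 and 109 in IL12, 67.1 and 66.2 in DRIL18, 71.9 and 68.5 in Mock, and 71.4 and 66.0 in NoEp. Mixture and IL12 libraries overlapped at the top, and the 3 remaining groups lay close together below. The rise was 1.54-fold in mixture (log2 fold change 0.63 ± 0.05, adjusted p = 2.88e-13) and 1.55-fold in IL12 cells (log2 fold change 0.63 ± 0.05, adjusted p = 9.00e-13). Slc35a1, the Golgi carrier of CMP-sialic acid, rose in mixture cells (log2 fold change 0.38 ± 0.10, adjusted p = 0.00112). The call rested on mixture replicate 1, without which the log2 fold change was 0.25 (adjusted p = 0.071).

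Cmah (ENSMUSG00000016756) encodes the hydroxylase that turns CMP-Neu5Ac into CMP-Neu5Gc, the sialic acid form that mouse cells make and human cells do not. Its level was 40.1 and 38.9 CPM in the mixture libraries, 159.8 and 151 in IL12, 155 and 155 in DRIL18, 179 and 181 in Mock, and 213 and 221 in NoEp. Mixture libraries stood far below the rest, IL12 and DRIL18 overlapped in the middle, and NoEp was highest. Cmah fell 4.55-fold in mixture cells (log2 fold change -2.19 ± 0.04, adjusted p = 2.60e-27), 1.16-fold in IL12 cells (log2 fold change -0.21 ± 0.04, adjusted p = 5.74e-05) and 1.16-fold in DRIL18 cells (log2 fold change -0.22 ± 0.04, adjusted p = 9.91e-05).

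Of the sialidases, Neu3 at the plasma membrane cuts gangliosides. It was measured at 32.1 and 34.6 CPM in the mixture libraries, 31.8 and 30.7 in IL12, 33.0 and 32.9 in DRIL18, 26.9 and 26.1 in Mock, and 23.9 and 23.9 in NoEp. All 6 libraries with cytokine mRNA lay above Mock at similar levels. The log2 fold changes were 0.33 ± 0.06 (adjusted p = 4.39e-05) in mixture, 0.24 ± 0.07 (adjusted p = 0.00339) in IL12 and 0.31 ± 0.06 (adjusted p = 0.000422) in DRIL18 cells. The lysosomal sialidase Neu1 rose in IL12 cells (log2 fold change 0.23 ± 0.06, adjusted p = 0.00127).

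The mixture was then set against each single mRNA and against their sum. Against IL12 cells 25 of the 40 genes passed in mixture cells (11 higher, 14 lower), where 52.2% of all genes did (25.8% higher, 26.3% lower). Against DRIL18 cells 26 passed (9 higher, 17 lower), where 57.3% did (28.3% higher, 29.0% lower). IL12 against DRIL18 cells gave 21 (10 higher, 11 lower), where 39.5% did (18.9% higher, 20.6% lower). The interaction is the mixture's log2 fold change against Mock less the sum of those of IL12 and DRIL18, and it is 0 where the mRNAs combine by multiplying their folds. It passed for 19 of the 40 (7 above 0, 12 below), against 31.6% of all tested genes (14.6% above 0, 17.1% below).

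Genes below 0 in the interaction were of 2 kinds. St8sia1, Cmah and St8sia4 fell in mixture cells beyond the sum of the single effects, with interactions of -2.05 ± 0.07 (adjusted p = 1.03e-20), -1.76 ± 0.06 (adjusted p = 1.30e-20) and -0.97 ± 0.08 (adjusted p = 3.29e-11). B4galt1 (-0.65 ± 0.06 (adjusted p = 4.36e-11)), Selplg (-0.51 ± 0.05 (adjusted p = 1.64e-09)), Spn (-0.34 ± 0.05 (adjusted p = 6.46e-06)) and C1galt1 (-0.25 ± 0.06 (adjusted p = 0.003)) followed with smaller values. St3gal6 (-0.62 ± 0.16 (adjusted p = 0.00302)) and B3gnt5 (-0.47 ± 0.14 (adjusted p = 0.00989)) were also below 0. Without mixture replicate 1 these were -0.46 (adjusted p = 0.056) and -0.32 (adjusted p = 0.122). Gcnt1 and Chst2 are the second kind, since IL-12 mRNA alone raised them and the mixture did not reach that level. Their interactions were -1.56 ± 0.23 (adjusted p = 2.14e-06) and -1.12 ± 0.15 (adjusted p = 5.55e-07).

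Above 0 stood St3gal2, at 1.12 ± 0.16 (adjusted p = 1.90e-06), a gene that fell in IL12 cells and rose in mixture cells. St3gal1 (0.56 ± 0.08 (adjusted p = 1.21e-06)), Cd44 (0.28 ± 0.07 (adjusted p = 0.00246)) and B4galt5 (0.22 ± 0.06 (adjusted p = 0.00848)) were also above 0, and without mixture replicate 2 the adjusted p of B4galt5 was 0.0909. For St6gal1, Fut7 and Cmas the mixture and IL12 libraries overlapped, and their interactions were not called. Gcnt3 gave no usable interaction in edgeR (adjusted p = 0.9997), where 3 of the 4 groups in the contrast hold 2 counts in all. DESeq2 (adjusted p = 9.93e-06) and limma-voom (adjusted p = 2.21e-07) called it. DRIL18 and Mock libraries both hold 0 counts of Gcnt3, so the effect of DRIL18 mRNA alone cannot be estimated by any of these methods. No conclusion on its interaction is drawn.

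**Figure D4:**
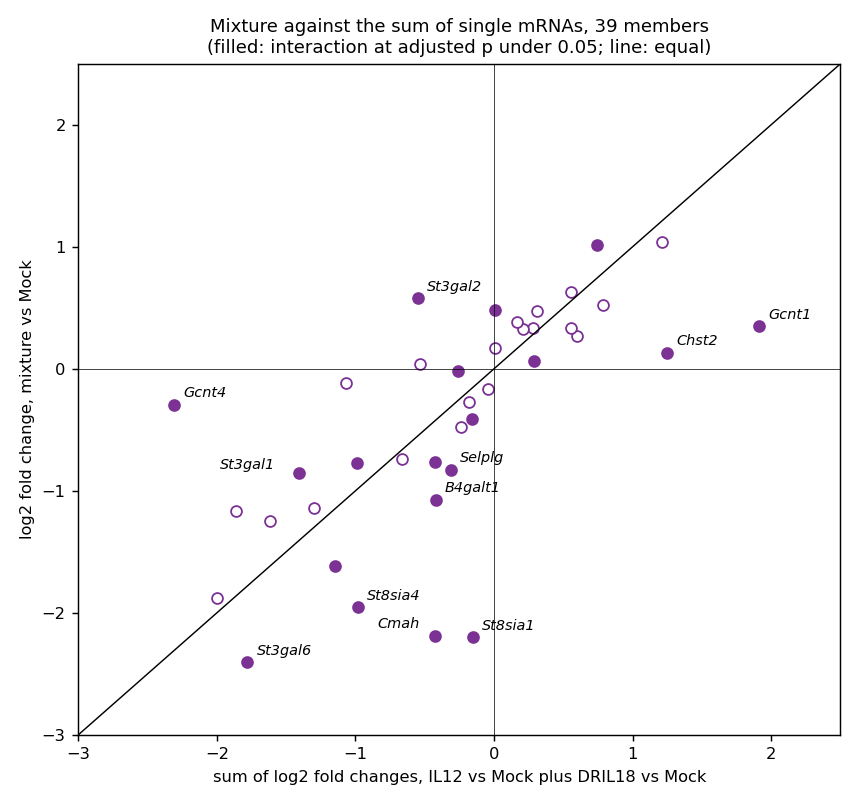
Log2 fold change in mixture cells over Mock (vertical axis) by the summed log2 fold changes in IL12 and DRIL18 cells over Mock (horizontal axis) for 39 genes, Gcnt3 left out. Filled points passed the interaction test, and the line marks equal values; St8sia1 and Cmah lie far below it and St3gal2 above it.

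Mock was also set against NoEp, 2 groups that differ in electroporation and in the column mark "bis", which both NoEp libraries and neither Mock library carry. Both mixture libraries carry it too, so mixture against Mock is divided by the mark in the same way. In Mock against NoEp 4 of the 40 passed (1 higher, 3 lower), where 6.98% of all genes did (3.34% higher, 3.64% lower). All 4 changes were under 2-fold, a size that 0.114% of all genes reached. Cmah (log2 fold change -0.27 ± 0.04, adjusted p = 4.09e-05), St8sia4 (log2 fold change -0.26 ± 0.05, adjusted p = 0.00149) and St8sia1 (log2 fold change -0.21 ± 0.04, adjusted p = 0.00296) were lower in Mock, and Nans (log2 fold change 0.16 ± 0.04, adjusted p = 0.0224) was higher. Without Mock replicate 1 only Cmah passed, and the same held with a term for the column mark. Without NoEp replicate 2 the value of Nans was 0.09 (adjusted p = 0.441).

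Other genes of the same pathways were counted from lists made by role, and each count in mixture cells below is to be read against the 63.9% of all tested genes that passed there (32.0% higher, 31.9% lower). Of 10 tested GalNAc transferases, which begin O-glycans, 3 rose and 4 fell in mixture cells against Mock, a share near that of all genes. Galnt10 averaged 11.3 ± 0.271 CPM in mixture and 31.6 ± 0.219 CPM in Mock cells (SD, n = 2 each; log2 fold change -1.48 ± 0.07, adjusted p = 2.67e-17). Galnt3 averaged 35.7 ± 1.31 CPM in mixture, 54.4 ± 1.52 in IL12, 18.2 ± 1.15 in DRIL18 and 26.0 ± 0.0261 in Mock cells (SD, n = 2 each). It was highest in IL12 cells, at a log2 fold change of 1.06 ± 0.06 (adjusted p = 6.81e-15), and Galnt12 fell in mixture cells (log2 fold change -0.61 ± 0.06, adjusted p = 3.02e-10). Of 12 N-glycan trimming and branching enzymes, 3 rose and 6 fell. The largest fall was that of Mgat3, which adds the bisecting N-acetylglucosamine, but it was scarce, at 0.146 and 0.119 CPM in the mixture libraries and 0.425 and 1.04 in Mock (log2 fold change -2.43 ± 0.63, adjusted p = 0.00116), and the call of Mgat3 was lost without Mock replicate 2 (adjusted p = 0.0704) and with the column-mark term (adjusted p = 0.0547). Among genes of at least 1 CPM, Mgat1 (-0.66), Mgat5 (-0.61) and Man2a1 (-0.54) changed most, as log2 fold changes in mixture cells.

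Of 11 nucleotide sugar genes, 7 rose and 1 fell in mixture cells, where 32.0% of all genes rose. Gfpt1, the entry enzyme of hexosamine synthesis, averaged 189 ± 8.27 CPM in mixture and 87.1 ± 0.664 CPM in Mock cells (SD, n = 2 each; log2 fold change 1.12 ± 0.04, adjusted p = 1.63e-20). The sugar carrier Slc35d1 (1.13) and the galactokinase Galk1 (0.98) also rose, as log2 fold changes. Of 11 fucose genes, 5 rose and 2 fell. Fut11 fell (log2 fold change -1.01 ± 0.08, adjusted p = 1.50e-12) and the carrier Slc35c2 rose (log2 fold change 0.41 ± 0.06, adjusted p = 2.89e-07). Fut1 stood at 1.43 ± 0.536 CPM in mixture and 0.0425 ± 0.0600 CPM in Mock cells (SD, n = 2 each), a call lost with the column-mark term (adjusted p = 0.0851). Fut1 too passed the filter on low counts only through its mixture libraries.

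Of 10 sulfation genes 3 rose and 6 fell, where 31.9% of all genes fell, and the chondroitin sulfotransferase Chst15 fell most (log2 fold change -1.74 ± 0.12, adjusted p = 5.31e-14). The tyrosine sulfotransferase Tpst1, whose product sulfates tyrosines of PSGL-1, rose (log2 fold change 1.09 ± 0.10, adjusted p = 1.22e-10), as did the sulfate donor enzyme Papss2 (log2 fold change 1.37 ± 0.37, adjusted p = 0.00179). Of 11 further galactosyl- and N-acetylglucosaminyltransferases 4 rose and 5 fell, among them B4galt2 (1.49), B3gntl1 (-1.01) and B3galt5 (-3.37 ± 0.48, log2 fold changes in mixture cells). B3galt5 was scarce, at 0.133 ± 0.105 CPM in mixture and 1.41 ± 0.0291 CPM in Mock cells (SD, n = 2 each). Its log2 fold change in IL12 cells against Mock was -3.25 ± 0.49. Called at under 1 CPM were B3gnt7 (log2 fold change 1.85 ± 0.70, adjusted p = 0.0218) and B3galt1 (log2 fold change 1.54 ± 0.66, adjusted p = 0.0426), with at most 18 counts in any mixture or Mock library. Neither kept its call in DESeq2 (adjusted p = 0.0549 for B3gnt7 and 0.0999 for B3galt1). B3gnt7 also lost it without mixture replicate 1 (adjusted p = 0.176) and without Mock replicate 2 (0.193), and B3galt1 without either mixture library (0.0921 and 0.154) and without Mock replicate 1 (0.316), among other settings. Of 4 further sialic acid genes 1 rose, Casd1 (log2 fold change 0.36 ± 0.07, adjusted p = 2.15e-05), and 1 fell, Siae (log2 fold change -1.05 ± 0.08, adjusted p = 1.69e-12). These enzymes add and remove the acetyl groups of sialic acid.

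Of 9 selectins and lectins that read such glycans, 3 rose and 4 fell in mixture cells, against 63.9% of all genes called. The largest rise was that of Selp, which encodes P-selectin, at 0.701 and 0.593 CPM in the mixture libraries and 0.0566 and 0.0892 in Mock (log2 fold change 3.09 ± 0.67, adjusted p = 0.000154). Those Mock values are 2 and 3 counts, and Selp passed the filter on low counts only through its mixture libraries. Lgals3, which encodes galectin-3, averaged 8.42 ± 0.885 CPM in mixture, 94.98 ± 3.72 in IL12, 19.3 ± 1.22 in DRIL18 and 46.1 ± 2.07 in Mock cells (SD, n = 2 each). It fell in mixture cells (log2 fold change -2.45 ± 0.08, adjusted p = 1.08e-22) and rose in IL12 cells (log2 fold change 1.04 ± 0.06, adjusted p = 8.80e-16), with an interaction of -2.24 ± 0.10 (adjusted p = 1.87e-17). Lgals9, which encodes galectin-9, went the other way, at 318 ± 14.6 CPM in mixture, 103 ± 0.104 in IL12 and 150.1 ± 6.18 in Mock cells (SD, n = 2 each). Its log2 fold change was 1.08 ± 0.04 (adjusted p = 3.31e-20) in mixture and -0.54 ± 0.04 (adjusted p = 9.72e-12) in IL12 cells. Lgals8 fell in mixture cells (log2 fold change -1.07 ± 0.06, adjusted p = 1.28e-16).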

How the data were processed

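RNA was sequenced from 10 libraries of pmel-1 cells, in 5 groups of 2. STAR 2.7.9, featureCounts, edgeR, limma and the build mm39 are named in the submitters' processing notes. The authors deposited raw counts per gene for 55359 versioned Ensembl identifiers. They also deposited log2 CPM values for a subset of genes, used here in 1 alternative. The sources used here do not give the strand setting, the annotation release or the treatment of multiply aligned reads. No column stayed unmatched to a sample.

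Symbols came from GENCODE M21 by identifier without version: 52083 matched, 3276 did not, and all 40 genes matched 1 identifier each. The counts were fitted in edgeR 4.0.16 (R 4.3.3) over all 10 libraries with 5 group means, TMM scaling (factors 0.955 to 1.03), filterByExpr and quasi-likelihood F tests with 5 residual degrees of freedom. P-values were adjusted by Benjamini-Hochberg over 15777 genes. CPM use TMM-scaled library sizes over the tested genes. SE of a log2 fold change is taken from the fit. Alternatives used DESeq2 1.42.0, limma 3.58.1, other scalings and filters, a replicate block, a term for the mark "bis" in the column names, which the sources used here do not explain, and leaving out each library. Intervals and bounds cover counting error only.

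Values in every library are given for genes fixed by role and for those called against Mock with a log2 fold change of at least 1 either way and at least 1 CPM in the higher group. St3gal2, Cmas and Gcnt4 were added after their values were seen. Of each pathway list, up to 3 genes called in mixture against Mock with the largest changes and at least 1 CPM in the higher group are named. The 4 listed genes called at 2-fold or more below 1 CPM were added after their values were seen. The 40 genes, the lists and the tests were chosen with earlier results of these data known. The procedure was tested on simulated data. Deviations of libraries with the same replicate number correlated between -0.03 and 0.05, so the numbers were not taken as pairs.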

Additional observations from a re-analysis of the deposited data

Results flagged for a closer look

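The interaction test, which asks whether the effect of one mRNA on the log2 scale differed with the other present, passed for 19 of the 40 genes by edgeR at an adjusted p under 0.05, against 31.6% of all tested genes. Below 0, so that mixture cells lay under the sum of the single effects, were St8sia1 (-2.05), Cmah (-1.76), Gcnt1 (-1.56), Chst2 (-1.12), St8sia4 (-0.97), B4galt1 (-0.65), St3gal6 (-0.62), Selplg (-0.51), B3gnt5 (-0.47), Spn (-0.34), C1galt1 (-0.25) and the lysosomal sialidase Neu1 (-0.23). Above 0 were B4galt5 (0.22), Gne (0.24), Cd44 (0.28), B3gnt3 (0.47), St3gal1 (0.56), St3gal2 (1.12) and Gcnt4 (2.01).

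The value of Gcnt4 rested on its IL12 libraries at under 1 CPM, and was 1.25 (adjusted p = 0.156) without IL12 replicate 2 and 3.67 without IL12 replicate 1. B3gnt3 was 0.24 (adjusted p = 0.33) without Mock replicate 2. Gne and Neu1 each lost the call without several single libraries, at -0.17 for Neu1 without DRIL18 replicate 1 (adjusted p = 0.192) and 0.17 for Gne without mixture replicate 1 (adjusted p = 0.175).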

How the results depend on the processing

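Over 8 comparisons, 164 gene and comparison pairs passed the test. Under 19 alternatives, 125 of them kept their call throughout, 39 lost it under at least 1, and 0 changed sign. Leaving out mixture replicate 1 ended the most calls (18), then Mock replicate 1 (16). Without single libraries the counts of called genes ranged from 26 to 31 (mixture against Mock), 22 to 26 (IL12 against Mock), 11 to 14 (DRIL18 against Mock), 1 to 5 (Mock against NoEp), 21 to 25 (mixture against IL12), 22 to 26 (mixture against DRIL18), 18 to 22 (IL12 against DRIL18) and 13 to 19 (interaction). The term for the column mark left 1 call in Mock against NoEp, where the main count was 4. The cause was not tested, but the mark stands on both NoEp and both mixture libraries and on neither Mock library. With the replicate block the counts were 31, 25, 13, 4, 25, 26, 20 and 19 in the same order, and the call that it added in mixture against Mock was Gcnt1. A group left with 1 library is assumed to vary like the others. The 2 libraries per group limit the precision. Genes averaging under 1 CPM in every group (Gcnt2, Gcnt4, St6galnac3, St8sia6) carry few counts. Smaller changes there could go uncalled, and the size needed for a call was not tested. Gcnt3 was called in mixture against Mock under every alternative, but it passed the filter on low counts only through its mixture libraries.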
